A study of Sus scrofa with 59 samples.

Results

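The 59 pig muscles were split by their level of CXCL9, the gene of a chemokine that interferon-gamma induces. Muscles with a deposited CXCL9 value at or above 9.35 on the log2 scale formed the CXCL9-high group, and those under it the CXCL9-low group. This put 11 of the 59 muscles in the high group and 48 in the low group. The muscles were thus chosen by the deposited value of 1 probe set, the only one on the array named for CXCL9. The groups are set by a measured level, not by anything the study did to the animals. CXCL9 itself is only described, and every test concerns other genes on the same arrays.

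Each sample was longissimus dorsi, a long muscle of the back, from a separate pig, hybridised to 1 Affymetrix porcine array. All pigs in both groups came from a cross named LD/LW x Duroc in the labels, grew up together with free access to feed and were 170 days old, and the labels name no treatment. Tissue was frozen at slaughter, and the study's title places it early after death. The labels give no sex, health status, array batch or trait value for any pig, so none of these could be taken from the labels and compared with CXCL9. In place of a sex label, the Y-linked gene EIF1AY was compared between the groups. The tissue is whole muscle, in which fewer cells of a type and less RNA per cell cannot be told apart. The muscle identity was plain in both groups. The fast fibre genes CKM, MYH2 and TNNC2 and the slow fibre gene MYH7 averaged 14.62, 14.72, 14.79 and 14.29 log2 over all pigs, close to the maximum of 15.04. Pairs of arrays correlated at 0.968 or more. Precision is limited by how many arrays there are, and p-values set a difference or slope against the spread between pigs.

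Interferon-gamma is released mainly by activated T cells and natural killer cells. It acts through its receptor and the kinases JAK1 and JAK2. Its signal switches on IRF1, guanylate binding proteins, the chemokine CXCL9 and the machinery that cuts proteins into peptides and shows them on MHC molecules. Type I interferons use a related route through STAT2 and IRF9 and induce an overlapping set of genes. CXCL9 draws in T cells that carry its receptor. Resting muscle fibres are known for low MHC class I expression, which rises in inflamed muscle.

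CXCL9 ran from 9.63 to 10.91 log2 in the 11 high muscles, with a median of 10.35 and a mean of 10.35 ± 0.45 (SD, n = 11). In the 48 low muscles it ran from 4.98 to 9.08, with a median of 6.32 and a mean of 6.73 ± 1.09 (SD, n = 48). The 2 muscles just inside the limit had 9.63 and 9.86, and the 2 just outside it 9.08 and 8.87. The gap at the limit was 0.55, and the low group had a tail of muscles with high values rather than a clean break. These values chose the groups and were not tested.

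Genes of the interferon response and of antigen processing were higher in the CXCL9-high muscles, and nearly all differences that passed the test were in that direction. Of 11999 probe sets tested with limma, 118 were higher in the high group (0.983%) and 1 was lower (0.00833%) at a Benjamini-Hochberg adjusted p under 0.05, 119 in all (0.992%). The median difference over all probe sets tested was -0.0078 log2. The deposited values were already normalised, so this cannot show whether the arrays as a whole had shifted. Of the 118 higher probe sets, 85 carried a gene symbol. Counted by gene, with the brightest probe set standing for each, 72 of 4927 genes were higher (1.46%), and 50 of these belonged to the gene lists described here. Differences are given as high minus low on the log2 scale, with the standard error from limma.

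GBP1, an interferon-induced guanylate binding protein that acts against pathogens inside cells, had the largest difference of any named gene. It had been named for this comparison with earlier results of these data known. In the high muscles GBP1 ran from 9.80 to 12.59 log2, with a median of 11.69. In the low muscles it ran from 6.81 to 10.45, with a median of 7.77. The groups overlapped by 1 muscle on each side: 10 of 11 high muscles lay above every low muscle, and 1 low muscle, pig 15 with 10.45, lay above the lowest high one, pig 71. The difference was 3.35 ± 0.28 (95% interval 2.80 to 3.90), or 10.2-fold, with a limma adjusted p of 2.32e-14. A second, dimmer GBP1 probe set differed by 2.54 ± 0.19. Among related GTPases, MX1, an antiviral GTPase of the type I response, differed by 0.35 ± 0.10 and did not pass (limma adjusted p = 0.0956). ATL3, a membrane GTPase, differed by 0.0046 and RHOF by 0.23, and neither passed.

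**Figure D1:**
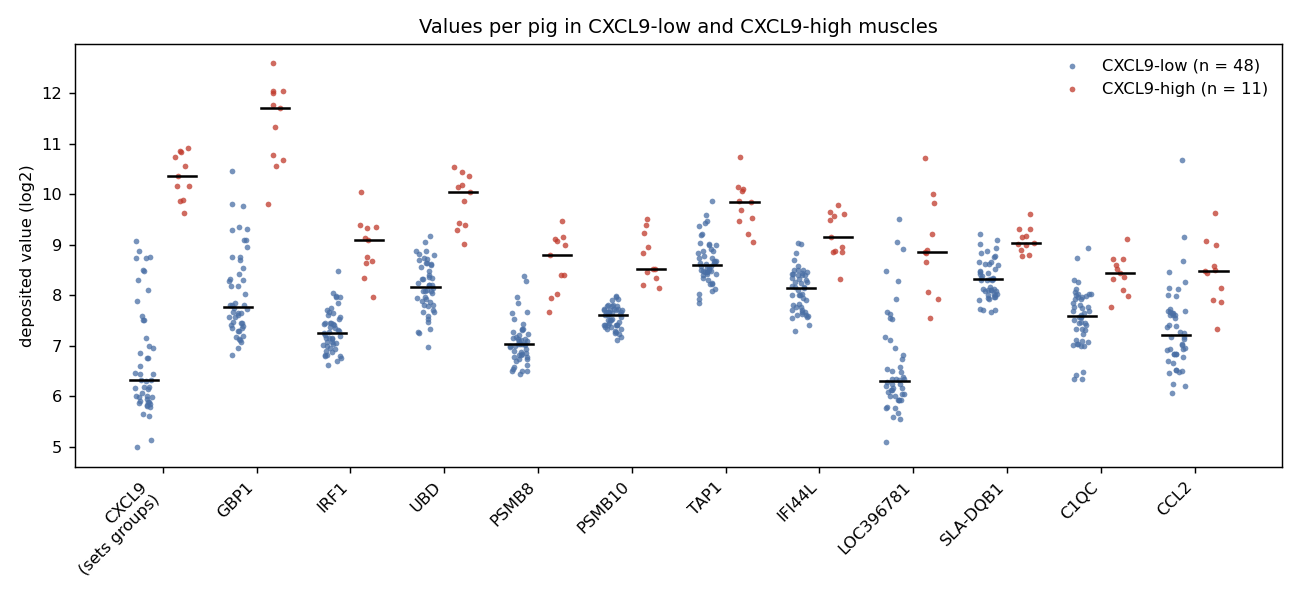
Deposited log2 values of CXCL9 and 11 other genes in each pig, with CXCL9-low muscles in blue (n = 48), CXCL9-high muscles in red (n = 11) and black lines at the group medians. CXCL9 set the groups; PSMB10 is separated between them, with all 11 high muscles above all 48 low ones, while CCL2 overlaps widely.

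Among genes of interferon-gamma reception and signalling, 3 of 9 tested genes rose, and these were the transcription factors IRF1, IRF8 and IRF2. The median difference of the list was 0.09, against -0.0053 over all genes. IRF1, an early target of interferon-gamma that in turn activates many interferon genes, ran from 7.96 to 10.05 in the high muscles with a median of 9.09. Its low muscles ran from 6.62 to 8.48 with a median of 7.25. Most high muscles stood clear: 9 of 11 lay above every low muscle. IRF1 differed by 1.68 ± 0.14, or 3.19-fold (limma adjusted p = 8.73e-14). IRF8, a factor of macrophages, dendritic cells and B cells, differed by 0.70 ± 0.11 (adjusted p = 1.03e-05) and IRF2, which competes with IRF1 for its sites, by 0.23 ± 0.06 (adjusted p = 0.023). The upstream steps gave no call. The receptor chain gene IFNGR1 differed by 0.09, JAK1 by 0.02, JAK2 by 0.09, STAT3 by -0.08, and the inhibitors PIAS1 and PTPN2 by 0.09 and 0.05. The IRF2 call was lost without any 1 of pigs 1, 16, 33, 41 or 63, all high, with differences then from 0.21 to 0.23.

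The proteasome divided by kind. All 4 tested genes of the immunoproteasome and its activator rose, with a median difference of 1.03, while none of the 14 constitutive proteasome genes passed in either direction, with a median of -0.05. Interferon-gamma is known to exchange the catalytic subunits of the constitutive proteasome for PSMB8, PSMB9 and PSMB10. PSMB10 was the only probe set of the 11999 for which every high muscle lay above every low muscle (0.00833%). It ran from 8.13 to 9.50 in the high group with a median of 8.51, and from 7.12 to 7.97 in the low group with a median of 7.61. The difference was 1.17 ± 0.09, or 2.24-fold (limma adjusted p = 6.22e-15). PSMB8 ran from 7.67 to 9.46 against 6.45 to 8.38, with medians of 8.80 and 7.03, and 8 of 11 high muscles lay above every low muscle. It differed by 1.56 ± 0.15 (adjusted p = 7.32e-12). The activator subunits PSME1 and PSME2, which open the proteasome for peptide release, differed by 0.89 ± 0.10 and 0.86 ± 0.07 (limma adjusted p = 1.96e-09 and 8.93e-14). For the constitutive catalytic subunits PSMB5, PSMB6 and PSMB7 the differences were -0.06, 0.03 and -0.05. PSMA3, a structural subunit, came closest to a call, at 0.15 ± 0.04 (limma adjusted p = 0.0609).

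Of 10 tested genes of MHC class I and peptide loading, 4 rose: TAP1, TAPBP, SLA-2 and SLA-6. The median difference was 0.36. TAP1, a chain of the transporter that carries peptides into the endoplasmic reticulum, ran from 9.04 to 10.74 in the high muscles and from 7.85 to 9.86 in the low ones, with medians of 9.85 and 8.60. The groups overlapped, and 4 high muscles lay above every low muscle. TAP1 differed by 1.13 ± 0.14 (limma adjusted p = 7.08e-08), but its second, dimmer probe set differed by only 0.0049. TAPBP, the tapasin gene that couples TAP to class I molecules, differed by 0.87 ± 0.09 (adjusted p = 2.77e-10). The pig class I heavy chain gene SLA-2 differed by 0.59 ± 0.13 (adjusted p = 0.00234) and SLA-6 by 0.32 ± 0.08 (adjusted p = 0.0357). SLA-3, at 0.49 ± 0.14, and SLA-8, at 0.40 ± 0.18, did not pass (limma adjusted p = 0.109 and 0.585). The general endoplasmic reticulum chaperones CALR and PDIA3 differed by -0.06 and 0.11, with no call. Class I genes are near-identical copies of one another, so probe sets may take signal from several. B2M, the light chain of class I molecules, gave no single answer: its brightest probe set differed by 0.01, and of its 9 tested probe sets 2 were called, at 0.42 and 0.72. The SLA-6 call was lost without any 1 of pigs 1, 11, 16, 33, 41 or 63, with differences from 0.29 to 0.32.

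MHC class II genes, which present peptides on macrophages, dendritic cells and B cells, rose in 8 of 9 cases, with a median difference of 0.66. SLA-DQB1, a class II beta chain, ran from 8.77 to 9.61 in the high muscles and from 7.66 to 9.22 in the low muscles, with medians of 9.02 and 8.31. Of the 11 high muscles, 3 exceeded every low muscle, and the rest lay within the range of the low group. SLA-DQB1 differed by 0.78 ± 0.12 (limma adjusted p = 6.31e-06) and SLA-DQA1 by 0.73 ± 0.11. SLA-DRB1 and SLA-DRA differed by 0.66 ± 0.12 and 0.65 ± 0.13, and SLA-DMB, which helps to load class II molecules, by 0.63 ± 0.09. The invariant chain gene CD74 differed by 0.49 ± 0.09 (adjusted p = 0.000264). The lysosomal genes IFI30, a thiol reductase, and CTSS, the protease cathepsin S, differed by 0.73 ± 0.14 and 0.73 ± 0.19. The exception was SLA-DMA, whose brightest probe set differed by -0.03 ± 0.06, while the other of its 2 probe sets was called higher. The CTSS call (limma adjusted p = 0.0341) was lost without any 1 of pigs 1, 11, 16, 33, 41 or 63, with differences from 0.64 to 0.73.

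Of 13 tested type I interferon-stimulated genes, 8 rose, with a median difference of 0.49. IFI44L ran from 8.32 to 9.79 in the high muscles and from 7.30 to 9.03 in the low ones, with medians of 9.15 and 8.15, and 6 high muscles lay above every low muscle. It differed by 1.09 ± 0.14, or 2.12-fold (limma adjusted p = 6.35e-08). IRF9, the DNA-binding part of the type I interferon complex, differed by 0.69 ± 0.08 (adjusted p = 5.69e-10). The antiviral genes IFIT3 and PARP12 differed by 0.62 ± 0.11 and 0.45 ± 0.09. ISG15, a ubiquitin-like modifier, differed by 0.61 ± 0.16 (limma adjusted p = 0.0322), and USP18, the protease that removes it, by 0.49 ± 0.12 (adjusted p = 0.0106). EIF2AK2, the kinase that senses double-stranded RNA, differed by 0.30 ± 0.12 and IRF7, a regulator of type I interferon genes, by 0.12 ± 0.05, and neither passed. The brightest probe set of IFIT1 did not pass either (0.54 ± 0.17, limma adjusted p = 0.185), although 1 of its 3 probe sets was called higher. The ISG15 call was lost without any 1 of pigs 1, 11, 16, 30, 33 or 63, with differences from 0.56 to 0.61, and the USP18 call without pig 63 (0.42).

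UBD, a ubiquitin-like protein also called FAT10 that interferon-gamma and tumour necrosis factor induce, was among the clearest differences. It ran from 9.02 to 10.54 in the high muscles, with a median of 10.04, and from 6.98 to 9.16 in the low muscles, with a median of 8.17. Here 10 of 11 high muscles lay above every low muscle. The difference was 1.72 ± 0.17, or 3.29-fold (limma adjusted p = 7.24e-12). UBD was the only 1 of 6 tested genes of the ubiquitin ligase and atrophy list to pass; the muscle ubiquitin ligase gene FBXO32 differed by 0.22 ± 0.18 and FOXO1 by -0.03. Of 3 interferon-induced metabolic enzymes, SAT1, which degrades polyamines, rose by 0.45 ± 0.11 and WARS, the tryptophan tRNA ligase, by 0.22 ± 0.05. The nitric oxide synthase gene NOS2 differed by 0.05 ± 0.06. The SAT1 call (limma adjusted p = 0.0165) was lost without any 1 of pigs 1, 33 or 63, with differences from 0.39 to 0.42.

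CCL5, a chemokine for T cells and monocytes, was the only other tested gene of the interferon-gamma chemokine list. It differed by 0.58 ± 0.08 (limma adjusted p = 9.28e-07). CXCL10 and CXCL11, the close relatives of CXCL9, were not analysed here. CCL2, which recruits monocytes, differed by 1.11 ± 0.26 (adjusted p = 0.00925), but its groups overlapped throughout. It ran from 7.34 to 9.62 in the high muscles and from 6.06 to 10.68 in the low muscles, and the highest value of all was in a low muscle, pig 36. CCL4 rose by 0.42 ± 0.09 (adjusted p = 0.00234), while CXCL12 and CXCL14 differed by 0.14 and -0.21 without passing. Of 6 tested NF-kB targets and cytokines, 2 rose: IL15, which sustains natural killer and memory T cells, by 0.41 ± 0.09 and the receptor gene CD40 by 0.34 ± 0.09 (limma adjusted p = 0.00277 and 0.027). NFKBIA and IL1B differed by 0.21 and 0.03 without passing. The CD40 call was lost without any 1 of pigs 16, 32, 33, 63 or 70, with differences from 0.30 to 0.34.

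**Figure D2:**
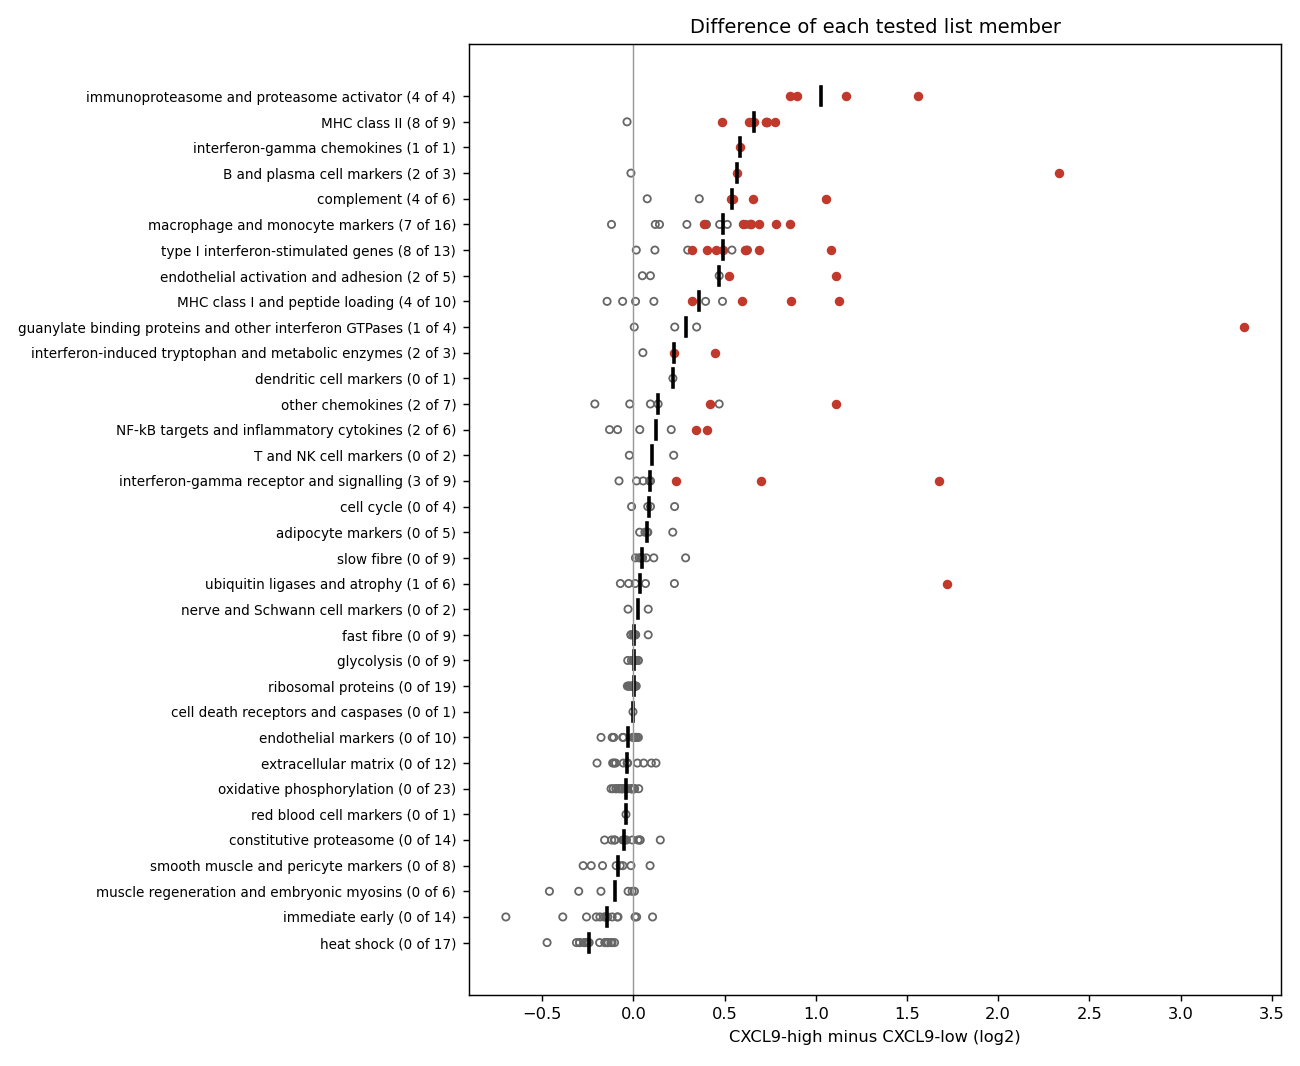
Difference between CXCL9-high and CXCL9-low muscles (log2) for each tested member of the gene lists, 1 point per gene, with the number higher of those tested beside each list name. Filled red points passed the test, open grey points did not, and black bars mark list medians. MHC, immunoproteasome and most interferon lists lie to the right, and muscle fibre, glycolysis and ribosomal lists near 0. The median of the interferon-gamma receptor and signalling list was only 0.09.

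Some markers of immune cells were also higher. Of 16 tested macrophage and monocyte markers, 7 rose, with a median difference of 0.49. The complement gene C1QC differed by 0.86 ± 0.17, the Fc receptor gene FCGR3A by 0.78 ± 0.15, LAPTM5 by 0.69 ± 0.17, GP91-PHOX (the CYBB oxidase subunit) by 0.64 ± 0.12, AIF1 by 0.64 ± 0.14 and TYROBP by 0.60 ± 0.15, with limma adjusted p from 0.000235 to 0.0187. SPP1, which encodes osteopontin, differed by 0.62 ± 0.86, CD83 by 0.14, VSIG4 by 0.40 ± 0.14 and the scavenger receptor gene CD163 by 0.40 ± 0.17, and none of these passed. The mean level of the macrophage list ran from 7.32 to 8.48 in the high muscles, with a median of 7.80, and from 6.32 to 8.37 in the low muscles, with a median of 7.22. The groups overlapped over most of that range. With no filter on brightness, 8 of 25 macrophage and monocyte markers rose. None of 7 neutrophil and mast cell markers and none of 4 dendritic cell markers did. The LAPTM5 call was lost without pig 63 (0.62), and the TYROBP call without any 1 of pigs 16, 41 or 63, with differences from 0.53 to 0.57.

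The macrophage level moved with the groups, so the comparison was also made with it as a covariate. That covariate is the mean of the macrophage list itself, so the differences of genes in that list become smaller by its construction. C1QC, FCGR3A, GP91-PHOX, LAPTM5, AIF1 and TYROBP are among these genes. With the covariate, 155 probe sets were called higher and 208 lower. GBP1 then differed by 3.04, IRF1 by 1.49, UBD by 1.50, PSMB8 by 1.32 and PSMB10 by 1.11, and these kept their calls. C1QC at 0.40, FCGR3A at 0.41, GP91-PHOX at 0.33 and IFI30 at 0.35 kept theirs too, at smaller differences than before. Among the genes named here, calls were lost for CCL2 at 0.52, CD53 at 0.23, CTSS at 0.18, LAPTM5 at 0.24, AIF1 at 0.22 and TYROBP at 0.16. They were also lost for C4A at 0.38, C1R at 0.26, C1S at 0.25, VCAM1 at 0.30, CD40 at 0.21, SAT1 at 0.23 and SLA-6 at 0.24. CALR, not called before, was then called lower at -0.22.

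Antibody genes had some of the largest differences. LOC396781, for which RefSeq gives IGHG, the immunoglobulin G heavy chain, as a synonym, ran from 7.54 to 10.71 in the high muscles and from 5.09 to 9.50 in the low muscles. The medians were 8.85 and 6.29, and only 3 of 11 high muscles lay above every low muscle. It differed by 2.34 ± 0.32, or 5.05-fold (limma adjusted p = 3.45e-07). JCHAIN, which joins antibody subunits in plasma cells, differed by 0.57 ± 0.11 (adjusted p = 0.000857). XBP1, a plasma cell transcription factor that muscle also expresses, differed by -0.01, so 2 of 3 tested genes of the list rose. With no filter on brightness it was 2 of 5. The dim members CD79B and TNFRSF17 differed by 0.091 and 0.086 and did not pass. LOC100152327 differed by 1.70 ± 0.25 (limma adjusted p = 3.77e-06). Its RefSeq neighbours include a constant region and V segments, annotation that was looked up after its values had been seen. The mean level of the B and plasma cell list ran from 8.78 to 10.04 in the high muscles and from 7.85 to 9.66 in the low ones. Its part in the other differences was not tested.

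T cell genes were mostly too dim for the main comparison: 22 of the 24 T and NK cell markers on the array fell under the brightness filter. The 2 that were tested, GNLY, a cytotoxic granule protein, and CORO1A, differed by 0.22 ± 0.06 (limma adjusted p = 0.0719) and -0.02 in their brightest probe sets, and neither passed. Of the 2 tested probe sets of CORO1A, the other was called higher. With no filter, 243 of 23998 probe sets were higher (1.01%) and 3 were lower (0.0125%), and by gene 123 of 6764 were higher (1.82%). Among T and NK cell markers 7 of 24 rose, all of them dim. CD8A, the coreceptor of cytotoxic T cells, differed by 0.90 ± 0.18 and CD3E, a chain of the T cell receptor complex, by 0.37 ± 0.07 (limma adjusted p = 0.000829 and 0.000116). CD4 differed by 0.0086 and CD14, a monocyte marker, by 0.10, and neither passed. LCK, the kinase of the T cell receptor, and CD3G, named after their values were seen, differed by 0.68 ± 0.09 and 0.50 ± 0.08. KLRK1, SH2D1A and LAT, also named after their values were seen, passed too, at 0.58 ± 0.11, 0.29 ± 0.05 and 0.18 ± 0.05. The remaining markers of the list did not pass. Among them CD3D differed by 0.14, CD247 by 0.06, CD8B by 0.18, CD2 by 0.17, PTPRC by 0.02 and PRF1 by -0.10.

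The interferon-gamma gene itself, IFNG, lay near the bottom of the range at 4.06 log2 on average in the high muscles and 3.70 in the low muscles. It differed by 0.35 ± 0.07 without the filter (limma adjusted p = 0.000572). GBP2, a dim relative of GBP1, differed by 1.16 ± 0.11 (adjusted p = 1.93e-11) and KYNU, an enzyme of tryptophan breakdown, by 0.49 ± 0.08. The inhibitors SOCS1 and SOCS3 differed by 0.0039 and -0.02, and CIITA, the switch of class II genes, by 0.10 ± 0.05, with no call. PLAC8 and CXCL13, a B cell chemokine, were named after their values were seen and differed by 1.50 ± 0.25 and 0.47 ± 0.08. Differences of such dim genes may be compressed by the background correction, which was not measured here.

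Complement and vessel genes gave mixed results. Of 6 tested complement genes 4 rose, with a median difference of 0.54. C3, the central component, differed by 1.05 ± 0.21, or 2.08-fold (limma adjusted p = 0.000814). It ran from 8.14 to 9.50 in the high muscles and from 6.51 to 9.02 in the low ones. C4A, C1S and C1R, of the classical pathway, differed by 0.65 ± 0.17, 0.54 ± 0.14 and 0.53 ± 0.13. The inhibitor gene SERPING1 differed by 0.36 ± 0.11 without passing (adjusted p = 0.139). The vascular adhesion gene VCAM1 rose by 0.52 ± 0.11 (limma adjusted p = 0.00155), while none of 10 endothelial identity markers passed. Of these, PECAM1 differed by -0.18 ± 0.09 and VWF by -0.06. The calls of C4A (without any 1 of pigs 1, 11, 16, 32, 63, 66 or 71), C1S (1, 11, 16, 33, 63, 66 or 71) and C1R (16 or 63) were lost at differences from 0.57 to 0.66, 0.47 to 0.56 and 0.48.

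Another 22 higher genes belonged to no list. CD53, a leukocyte membrane protein, differed by 0.84 ± 0.20 (limma adjusted p = 0.014), a call lost without pig 41 (0.78) or pig 63 (0.78). The rest were named after their values were seen. GM2A, a lysosomal lipid-binding protein, differed by 0.69 ± 0.10, SAMHD1, an antiviral nucleotide hydrolase, by 0.46 ± 0.09, and NUB1, which binds UBD and NEDD8 and is induced by interferon, by 0.44 ± 0.07. LOC106504372, for which RefSeq gives SLA-DRB as a synonym, differed by 0.67 ± 0.11. LOC100621559 was called in all 4 of its probe sets, by 0.49 to 1.57. Its RefSeq neighbours include EPHB6, TRPV6, PRSS2, a constant region and V segments. They are not the neighbours of LOC100152327. Whether LOC100621559 is a T cell receptor gene, an antibody gene or neither was not determined. Of the 118 higher probe sets, 33 carried no single gene symbol. The largest of these differed by 4.10 ± 0.33, more than any named gene, with medians of 11.04 and 6.09. The next of the unnamed probe sets differed by 2.43 ± 0.39 and 2.13 ± 0.18. The latter averaged 6.16 in the low muscles, also under the filter. The only lower gene was CTR9, a subunit of the transcription elongation complex PAF1, at -0.52 ± 0.13 (limma adjusted p = 0.0308). Its call was lost without any 1 of pigs 1, 16, 30, 33, 41 or 71, with differences from -0.52 to -0.47.

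Muscle genes did not pass in any of the lists tested. None of 9 slow fibre, 9 fast fibre, 23 oxidative phosphorylation, 9 glycolysis, 12 extracellular matrix, 5 adipocyte and 19 ribosomal protein genes passed by its brightest probe set, with list medians between -0.04 and 0.08. MYH7, the slow myosin, differed by 0.05 ± 0.05, the fast myosin MYH2 by 0.00036 ± 0.02 and CKM, muscle creatine kinase, by 0.0032 ± 0.02. FABP4, a fat cell marker, differed by 0.08 ± 0.15. None of 6 tested regeneration genes passed; MYOD1, a myogenic factor, differed by -0.30 ± 0.19. SDHB was the one case of disagreement, with a brightest probe set at -0.04 and a second, dimmer one called at 0.37 ± 0.07. The bright contractile genes lie near the top of the scale, where differences may be compressed, which was not measured here.

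Stress genes gave no call either. None of 17 heat shock genes passed, although all 17 differences were below 0, with a median of -0.24 against -0.0053 over all genes. Of all 4927 genes tested, 2327 had a difference above 0. HSPB8, a small heat shock protein, differed by -0.31 ± 0.13 and DNAJA1, a cochaperone, by -0.47 ± 0.20 (limma adjusted p = 0.498 and 0.54). The mean level of the heat shock list ran from 11.32 to 12.72 in the high muscles and from 11.68 to 13.27 in the low ones, so the groups overlapped over most of the range. Of 14 immediate early genes none passed; ATF3 differed by -0.39 ± 0.36 and EGR1 by -0.16 ± 0.38. OCA2 and PON3, which vary widely between these pigs, differed by -1.40 ± 0.63 and -0.35 ± 0.58 and did not pass (limma adjusted p = 0.578 and 0.909).

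The high muscles were not alike. Across the 20 named genes with the largest called differences, which were chosen for those differences, every high muscle lay above the low median in 20 of 20. Pig 63 exceeded every low muscle in 15 of the 20, pigs 16 and 41 in 13, and pig 71 in only 1. Pig 71 also held the lowest high value in 11 of the 20, pig 30 in 4 and pig 70 in 3. Without the 2 muscles of highest CXCL9, pigs 41 and 16, 81 of the 119 calls remained. Among named genes, calls were then lost for CCL2 (1.07), CD53 (0.74), CTSS (0.62), AIF1 (0.57), SLA-2 (0.52), CCL4 (0.36), IL15 (0.31), STAT2 (0.32) and WARS (0.17), and for most of the genes whose calls 1 muscle could end. The mean of the 20 genes ran from 8.52, in pig 71, to 9.62, in pig 16. In the low group it ran from 7.22 to 8.69, with a median of 7.79, so the top of the low group reached the bottom of the high group. Of the low muscles, pig 26 was at or above the lowest high muscle in 16 of the 20 genes, pig 28 in 15, pig 9 in 14 and pig 36 in 13. Pig 28 had the highest CXCL9 of the low group, but pigs 26 and 9 had only 8.10 and 7.51.

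**Figure D3:**
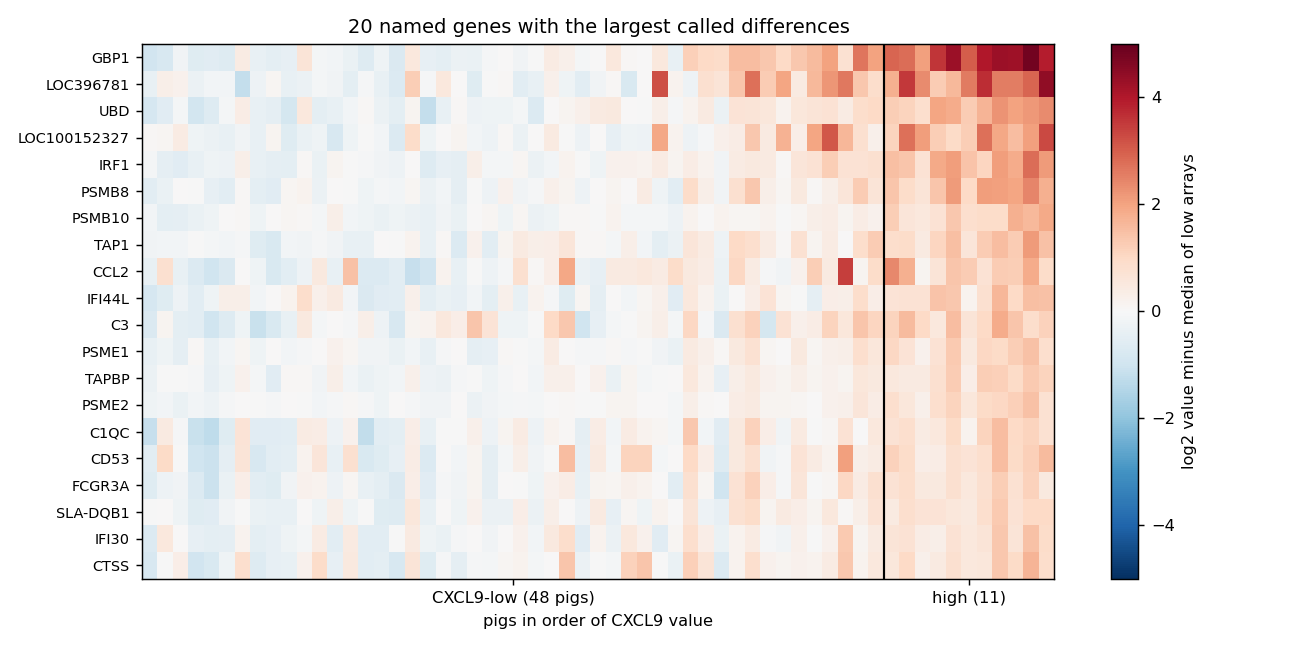
Values of the 20 named genes with the largest called differences in all 59 pigs, ordered from the lowest to the highest CXCL9 value, as the log2 difference from the median of the low muscles (red higher, blue lower). The vertical line marks the limit between the 48 low and the 11 high muscles; several low muscles near the line show raised values in many of the 20 genes.

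Whether the same genes follow CXCL9 within a group was asked separately, since differences inside a group played no part in the split. These fits use the same muscles as the comparison of the groups, so their calls are not independent counts. Within the 48 low muscles, 71 probe sets rose with CXCL9 (0.592%) and 23 fell (0.192%), by the limma slope per log2 unit of CXCL9. With arrays re-centred on their medians the split was 47 rising and 64 falling. GBP1 rose by 0.70 ± 0.05 per unit (limma adjusted p = 2.39e-14), UBD by 0.35 ± 0.04 (adjusted p = 7.07e-07) and IRF1 by 0.30 ± 0.03 (adjusted p = 4.07e-09). PSMB8 rose by 0.27 ± 0.04, PSME1 by 0.19 ± 0.03, PSME2 by 0.13 ± 0.02 and PSMB10 by 0.13 ± 0.02, so all 4 tested genes of the immunoproteasome list passed. For class II genes 5 of 9 passed and for class I and peptide loading 4 of 10, against 32 of 4927 genes overall. None of the 13 type I interferon-stimulated genes passed: IFI44L rose by 0.16 ± 0.05 (limma adjusted p = 0.103), IRF9 by 0.07 ± 0.03 (0.204) and USP18 by 0.04 ± 0.05 (0.753). LOC396781 rose by 0.62 ± 0.09 and JCHAIN by 0.18 ± 0.04, and of 16 macrophage markers FCGR3A alone passed (0.26 ± 0.05, limma adjusted p = 0.00487).

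**Figure D4:**
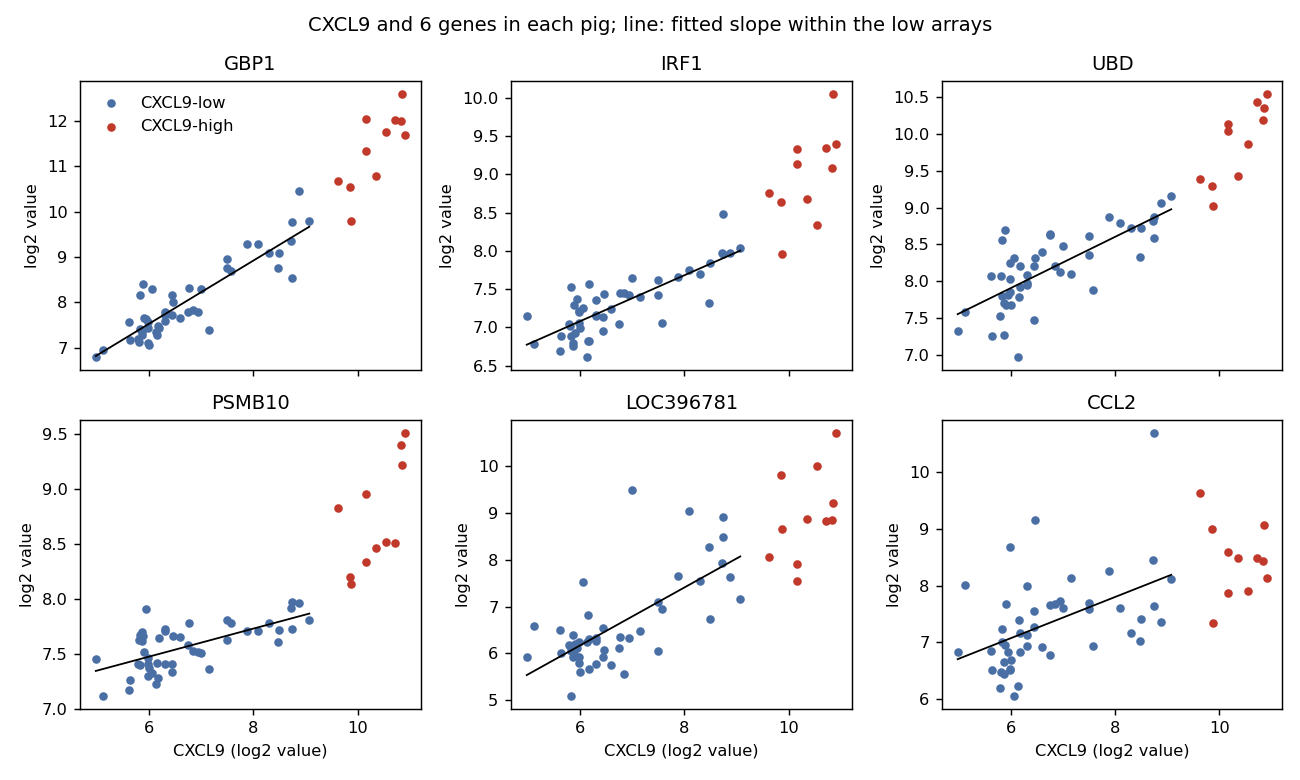
Log2 values of GBP1, IRF1, UBD, PSMB10, LOC396781 and CCL2 against CXCL9 in each pig, with CXCL9-low muscles in blue (n = 48) and CXCL9-high muscles in red (n = 11). The line is the fitted slope within the low muscles, from 0.13 log2 per unit for PSMB10 to 0.70 for GBP1; CCL2 scatters widely around its line.

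Within the 11 high muscles no slope was called. No probe set passed with limma. Of 11999 probe sets, 297 had an unadjusted p under 0.05, a share below 0.05 itself, and 150 of these rose with CXCL9. The slopes of GBP1, PSMB8 and PSMB10 in the high muscles were 1.45 ± 0.33, 0.91 ± 0.27 and 0.68 ± 0.24 per unit. Their slopes in the low muscles were 0.70, 0.27 and 0.13. The difference between the slopes was tested directly and passed for no probe set, with 304 of 11999 at an unadjusted p under 0.05, again a share below 0.05. For PSMB10 it was 0.55 ± 0.15 (limma unadjusted p = 0.0007, adjusted p = 0.999).

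Measures of array quality were close in both groups. The 3' minus 5' difference of the GAPDH control probe sets averaged -0.08 ± 0.06 in the high and -0.09 ± 0.05 in the low muscles (SD), and that of the ACTB controls 3.43 ± 0.37 and 3.34 ± 0.26. Array medians, which come from values already normalised, averaged 6.26 in both groups. The mean correlation with the other arrays was 0.988 in both, and the hybridisation controls averaged 10.88 and 10.89. EIF1AY, a Y-linked gene, ran from 3.09 to 10.56 in the high muscles and from 3.05 to 10.56 in the low ones, with medians of 3.52 and 3.46. It was the only measure used here that bears on sex. As a covariate it left the same 119 probe sets called. None of these 6 measures passed (two-sided permutation test with 100000 resamples, adjusted p = 0.929 for each).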

How the data were processed

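Total RNA from 59 longissimus dorsi muscles was labelled with biotin and hybridised to Affymetrix arrays, per the labels' protocols. The deposited values are normalised log2 intensities, 1 per probe set and array; the submitters' processing notes name GCRMA. Neither its version nor the base of the logarithm is given in the sources used here; values from 2.39 to 15.04 were read as log2. GCRMA corrects background by probe sequence and may compress differences of dim probe sets. The values were used as deposited.

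The table held 24123 probe sets, 124 of them controls, and 10099 carried 1 gene symbol, 198 several and 13826 none. Symbols came from the platform annotation, and 9989 were updated through Entrez identifiers with RefSeq tables of Sscrofa11.1. Another 10 list genes were matched by hand to older symbols. Probe sets with a mean of at least 6.27 log2, the median of means, were kept, and CXCL9 was left out of testing, which left 11999. Groups were compared with limma 3.58.1 (lmFit and eBayes) in R 4.3.3, with no covariates and Benjamini-Hochberg adjustment over all probe sets tested. Slopes on CXCL9 were fitted the same way within each group. Other steps used pandas 2.3.3, numpy 2.4.6 and scipy 1.17.1 in Python 3.11.15, and figures matplotlib 3.10.9. The fits were checked on simulated data.

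The brightest tested probe set stood for a gene, and the 35 gene lists held 602 genes, 388 with a probe set here and 265 tested. Named genes were the 20 with the largest positive and up to 10 with the largest negative called differences, all members of the interferon-gamma, GTPase, immunoproteasome, MHC and tryptophan enzyme lists, and from each other list up to 6 called members by size and up to 3 that did not pass by brightness. Defining markers of cell types, the 10 genes with the highest correlation to CXCL9, and SPP1, EIF1AY, OCA2, PON3 and HSPA6 could also be named. The groups, members and lists were chosen with earlier results of these data known. Alternatives concerned the filter, scaling, variance model, covariates and arrays left out.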

Additional observations from a re-analysis of the deposited data

How the results depend on the processing

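The comparison gave 119 calls, 246 with no filter on dim probe sets, 43 with a filter at the upper quartile of means (6000 tested), 363 with the macrophage marker level as a covariate (155 higher, 208 lower, 93 shared with the 119) and 198 for the slope over all arrays (117 shared). Why the covariate gave many lower calls was not tested. The other planned settings gave 81 (without the 2 muscles of highest CXCL9) to 142 (array weights), and leaving out each muscle in turn 98 to 129. Of the 119 calls, 91 held whichever muscle was left out and 28 did not. Calls within the low muscles numbered 94, 169 with no filter and 35 without the 2 muscles farthest from the group's median CXCL9. Leaving out each low muscle in turn gave 49 to 143, with 59 without pig 14, 59 without pig 15, 49 without pig 26, 143 without pig 31, 53 without pig 34 and 58 without pig 35. The slopes within the high muscles gave 0 calls under each setting tried. Of the 20 leading genes, CCL2, CD53 and CTSS lost their call under at least 1 setting, and in 320 of 329 gene and setting pairs direction and call stayed as reported. SLA-DMA reversed to 0.24 with the mean of its probe sets. No paired analysis was possible because the labels give 1 group, and the pig numbers only name arrays.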
